A study of Mus musculus with 6 samples.

Results

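The secreted signals of the Nodal pathway at the cell surface are described here through 8 genes of the mouse embryo, chosen by name: the ligand genes *Nodal*, *Gdf1* and *Gdf3*, the co-receptor genes *Cfc1* and *Tdgf1*, and the antagonist genes *Lefty1*, *Lefty2* and *Dand5*. They were measured by 9 of the 45281 probes of the array, of which *Nodal* has 2 and the others 1 each, among 19057 genes with a probe. The study compared whole embryos homozygous for *iso* (*Zic2* iso/iso) with wildtype embryos (+/+) of the same intercross of heterozygous *Zic2* iso/+ parents, all on a C3H/HeH background, at E8.0 to E8.5. Each sample was a pool of 8 embryos matched for stage, with 3 pools of each genotype and 1 Illumina Mouse WG6 v2 array per pool, and no other treatment was given. *iso* arose in a chemical mutagenesis screen, from treated C57BL/6J males mated to C3H/HeH females and later backcrosses to C3H/HeH. It lies in *Zic2*, a zinc finger transcription factor gene, and stops the protein within the fifth zinc finger. Embryos of both sexes were pooled, so a pool mixes sexes and all tissues, and a lower signal in a whole embryo does not tell fewer cells of a type from less RNA per cell.

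Nodal is a ligand of the TGFβ family that specifies the left side of the body. It is secreted around the node, the pit at the tip of the embryo whose cilia drive a leftward flow, and it then induces its own gene in the left lateral plate mesoderm, and it signals together with GDF1 as a partner. CFC1 (Cryptic) and TDGF1 (Cripto) are co-receptors anchored in the membrane that let Nodal bind activin receptors. LEFTY2 in the left lateral plate and LEFTY1 along the midline are induced by Nodal and block it in turn. DAND5 (Cerl2), made at the node and enriched on its right side, binds Nodal and limits its action there. GDF3, like Cripto, is best known from pluripotent cells and the early epiblast.

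The stretch of *Zic2* that carries the mutation is shown because it defines the genotype compared. The supplement of the study gives 60 bases of the coding strand, in which the substitution C32A, counted from the 5′ end of the stretch, turns the codon in capitals into a stop.

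wildtype *Zic2*: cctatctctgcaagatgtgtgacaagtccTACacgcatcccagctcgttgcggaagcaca
*Zic2* iso: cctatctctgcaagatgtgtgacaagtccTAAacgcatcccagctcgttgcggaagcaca

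*Nodal* has several enhancers, one of which, HBE, holds 3 sites that the study made as oligos to test the binding of ZIC2. They are shown as sites tested for the mutated factor in an enhancer of the ligand gene measured here. In vitro the study found that ZIC2 bound ZBS2 and ZBS3 but not ZBS1. Only the loss of ZBS3 ended the response of an HBE reporter to ZIC2. The arrays do not measure whether ZIC2 binds or acts at any of them. Capitals mark the 11 bases at the site itself.

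ZBS1: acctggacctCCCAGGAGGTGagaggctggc
ZBS2: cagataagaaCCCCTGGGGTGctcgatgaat
ZBS3: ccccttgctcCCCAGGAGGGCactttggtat

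For 5 of the 8 genes a promoter window, from 250 bases before to 50 bases after a start site, is held by RefSeq (build GRCm38.p6). *Gdf3*, *Lefty1* and *Lefty2* had none in the table used here. The windows were searched on both strands for a ZIC core (CAGCAGG), 2 forms of the FOXH1 site (AATCCACA and AATACACA) and the SMAD box (CAGAC), where FOXH1 and the SMADs are the factors through which Nodal acts. The *Nodal* window (chr10:61417722-61418021, plus strand) is shown because *Nodal* changed, and its only match, in capitals, is a ZIC core that begins 35 bases after the start.

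*Nodal*: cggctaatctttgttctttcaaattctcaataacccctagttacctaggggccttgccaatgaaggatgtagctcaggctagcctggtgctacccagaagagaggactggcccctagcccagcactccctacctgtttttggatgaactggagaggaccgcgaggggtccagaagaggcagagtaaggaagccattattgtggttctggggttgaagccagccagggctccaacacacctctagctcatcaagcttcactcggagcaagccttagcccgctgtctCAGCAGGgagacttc

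A ZIC core stands in 10.5% of all 32851 windows, with 1 in that of *Cfc1*, 2 in that of *Dand5* and none in those of *Tdgf1* and *Gdf1*. The SMAD box stands in 49.6% of all windows, in all windows of these members but that of *Nodal*, and neither FOXH1 form was found in any of the 6 (0.855% and 0.98% of all windows hold them). None of the 3 HBE sites is in the *Nodal* window, and none of the 3 oligos holds the ZIC core on either strand. A search for that core would thus miss the sites that the study tested. *Gdf1* has a pair of listed starts, of which the first (chr8:70315525-70315824, plus strand) is also that of *Cers1*, a ceramide synthase gene with which *Gdf1* shares a transcript of 2 reading frames, and the second (chr8:70329515-70329814, plus strand) is listed for *Gdf1* alone. They are shown because *Gdf1* is the member far above background in every pool, with SMAD boxes in capitals.

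*Gdf1*, first start: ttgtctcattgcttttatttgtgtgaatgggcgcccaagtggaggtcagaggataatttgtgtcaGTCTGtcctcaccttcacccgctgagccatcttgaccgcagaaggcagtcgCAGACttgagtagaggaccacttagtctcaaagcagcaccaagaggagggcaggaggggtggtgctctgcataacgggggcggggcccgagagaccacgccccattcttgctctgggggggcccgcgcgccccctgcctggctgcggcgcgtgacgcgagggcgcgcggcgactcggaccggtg
*Gdf1*, second start: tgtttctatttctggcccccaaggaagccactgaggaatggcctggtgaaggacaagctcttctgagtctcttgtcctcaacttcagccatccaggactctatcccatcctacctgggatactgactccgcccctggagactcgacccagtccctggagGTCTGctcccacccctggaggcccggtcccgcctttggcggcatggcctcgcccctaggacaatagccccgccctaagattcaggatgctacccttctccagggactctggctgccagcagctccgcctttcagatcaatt

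The deposited values are linear probe intensities, with the background not subtracted and the arrays not normalised to each other. They were converted to log2 and quantile normalised, and each probe was compared between genotypes with limma, as *Zic2* iso/iso minus wildtype, and the p-values of all probes were adjusted together (Benjamini-Hochberg). The array medians ran from 154 to 187 and the arrays correlated at 0.993 to 0.995 across probes. The background level of an array was the 95th percentile of 1606 dim probes on it (beta-defensins, keratin-associated proteins and receptors of the olfactory and vomeronasal organs), at 7.48 to 7.51 on the log2 scale, and 7.47 for means over the 6 pools. *Zic2* was at 8.27, 8.06 and 8.00 in wildtype pools 1 to 3 and 7.64, 7.57 and 8.01 in mutant pools 1 to 3 at its brighter probe. The pools overlapped and the log2 difference of −0.37 did not pass the test (limma, standard error 0.11, adjusted p = 0.61). The dimmer *Zic2* probe was 0.12 higher in the mutant pools and overlapped as well (adjusted p = 0.92 from limma). The allele is a point mutation, so these values do not check the genotype.

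*Nodal* and *Lefty2* were the 2 of the 8 genes that fell in the mutant embryos, no member rose, and the test was not passed by the other 6. Of all probes 0.0442% passed an adjusted p of 0.05, 0.0398% lower and 0.00442% higher in the mutant pools. An unadjusted p under 0.05 was reached by 3 members (*Nodal*, *Lefty1* and *Lefty2*) and by 6.02% of all probes. In the same 3 the highest mutant pool lay below the lowest wildtype pool, as in 5.46% of all probes and 6.39% of those above background (10.6% of all probes did not overlap in either direction). Only 4 of the 8 (*Nodal*, *Gdf1*, *Lefty1* and *Lefty2*) were above the background level in any pool by their brightest probe, and for the other 4 no change could be read. The median log2 fold change of the 8 was −0.06, where that of all probes was 0.00026.

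**Figure D1:**
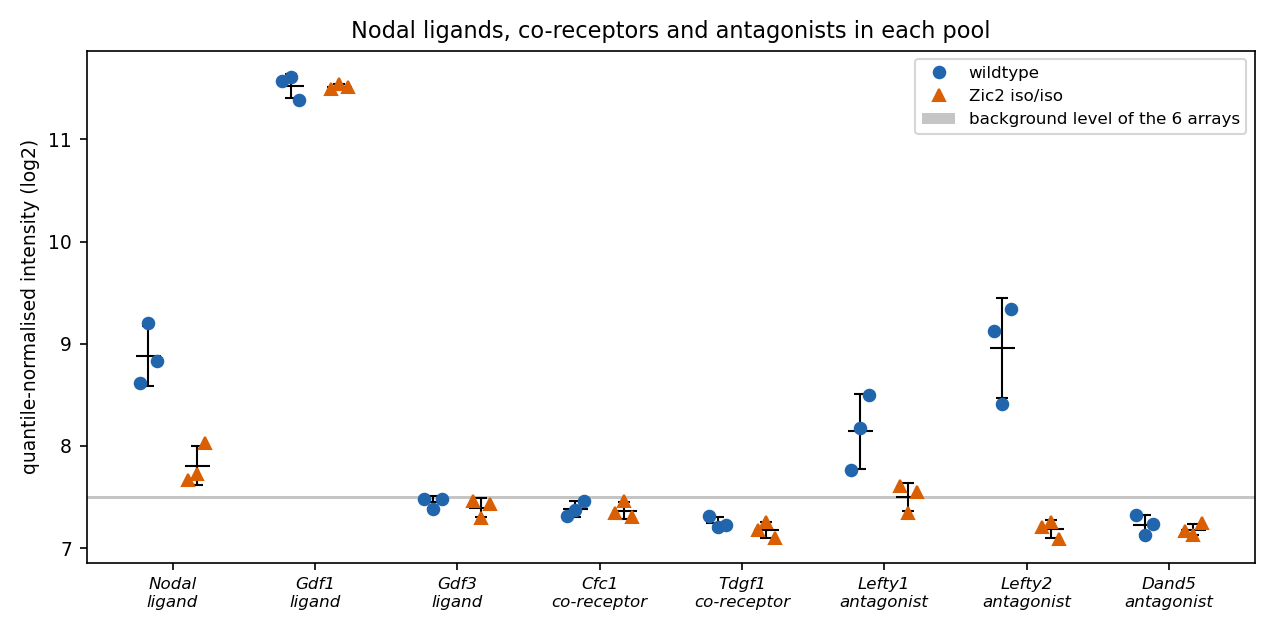
Log2 intensity after quantile normalisation (vertical axis) of the 8 genes by pool, with wildtype as circles, Zic2 iso/iso as triangles and replicates 1 to 3 from left to right; horizontal bars are means, error bars the SD of 3 pools, and the grey band spans the background levels of the 6 arrays (7.48 to 7.51). The mutant pools of Nodal, Lefty1 and Lefty2 lie below the wildtype pools, those of Gdf1 overlap with them near 11.5, and the other 4 genes lie at or below the band.

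The intensity of *Nodal* (probe ILMN_2776165) as deposited was 370, 608 and 428 in wildtype pools 1 to 3 and 238, 211 and 236 in *Zic2* iso/iso pools 1 to 3. On the normalised log2 scale this was 8.62, 9.20 and 8.83 against 7.67, 7.73 and 8.03. All 3 mutant pools stood below the lowest wildtype pool, with 0.59 between them and it, and all 6 were above the background level, so that *Nodal* was lowered but still measured. *Nodal* fell 2.11-fold, by 1.07 on the log2 scale (standard error 0.13, 95% interval −1.36 to −0.79, adjusted p = 0.0075 from limma), and ranked as the third largest fall of all probes. The call was lost without mutant replicate 2 (adjusted p = 0.070), without normalization between arrays (0.059) and with each array centred on its median (0.11). With the background corrected by normexp the fold was 2.63, and with a variance stabilising normalisation rewritten here it was 2.55.

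The other probe of *Nodal*, ILMN_3160797, was at 7.36, 7.69 and 7.54 in wildtype and 7.56, 7.54 and 7.43 in mutant pools, a log2 fold change of −0.02 (95% interval −0.21 to 0.16, adjusted p = 0.99 from limma). It was above the background level in 2 of 3 pools of each genotype, and the genotypes overlapped. The probes disagree, and no deposited column says which part of the transcript each one reads. Averaging both gave a log2 fold change of −0.55 (adjusted p = 0.20).

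*Gdf1*, the partner ligand, was at 11.57, 11.61 and 11.39 in wildtype pools and 11.49, 11.54 and 11.51 in *Zic2* iso/iso pools. The pools overlapped and the mutant pools lay within the wildtype range, and the log2 difference was −0.01 (95% interval −0.17 to 0.15, standard error 0.07, limma adjusted p = 0.997). A change in *Gdf1* of the size of the fall in *Nodal* lies outside this interval, although the sign of the small difference turned to 0.07 without normalization between arrays and to 0.02 with median centring. The probe of *Cers1* was below the background level in all 6 pools (6.99 to 7.21), so it gives no second reading of the shared transcript. *Gdf3* was at 7.48, 7.38 and 7.48 in wildtype and 7.46, 7.29 and 7.44 in mutant pools. All 6 were below the level of their array, although brighter on average than 92.7% of the dim probes, and no change could be read for this ligand.

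*Lefty2* changed most among the members. Its intensity as deposited was 524, 347 and 608 in wildtype pools 1 to 3 and 165, 152 and 129 in *Zic2* iso/iso pools, which is 9.13, 8.41 and 9.34 against 7.21, 7.26 and 7.09 on the normalised log2 scale. The wildtype pools were all well above the background level and the mutant pools were all below it. With the mutant pools counted at the background level of their array, the means of *Lefty2* differed 2.77-fold. This figure has no interval for the spread between pools, so it is not a lower limit of the fall. The measured means differed 3.42-fold, by a log2 fold change of −1.77 (standard error 0.17, 95% interval −2.15 to −1.40, adjusted p = 0.0019 from limma, probe ILMN_2713164). Only 1 of all probes had a larger fall. The measured ratio was 5.77 with normexp and 5.37 with the variance stabilising normalisation, as the unsubtracted background makes ratios of dim probes smaller. The call was kept without each pool in turn (adjusted p of 6.8e-06 to 0.015) and was lost with a robust variance prior (0.12).

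*Lefty1* was lower in every mutant pool as well, but did not pass the test. The intensity as deposited was 213, 293 and 340 in wildtype and 227, 161 and 173 in mutant pools, so that before normalization mutant pool 1 was above wildtype pool 1. After it the log2 values were 7.76, 8.17 and 8.497 in wildtype and 7.61, 7.35 and 7.55 in mutant pools, with 0.16 between the nearest pools of the genotypes. All wildtype pools and 2 of 3 mutant pools were above the background level. The log2 fold change was −0.64 (standard error 0.14, 95% interval −0.95 to −0.34, adjusted p = 0.27 from limma, probe ILMN_1246073), and the fold 1.56. The fold was 1.92 with normexp (adjusted p = 0.069) and 1.86 with the variance stabilising normalisation (0.051). Without wildtype replicate 1 *Lefty1* passed, at a log2 fold change of −0.85 (adjusted p = 0.016). It also passed with all pools when the variance prior followed the intensity (adjusted p = 0.037). The exact two-sided permutation p over pools was 0.1 for *Nodal*, *Lefty1* and *Lefty2* alike, the smallest that 3 against 3 allow.

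*Lefty1* and *Lefty2* both lie on chromosome 1. In the RefSeq table of GRCm38.p6 the long non-coding RNA *Gm39715* overlaps *Lefty1*, and the probe's strand is not given in the files used here. The *Lefty* proteins are close copies of each other, and cross-hybridisation between their probes was not tested. None of the 8 genes lies on chromosome 14, which carries *Zic2* and the segment that came with *iso*.

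*Dand5*, the antagonist of the right side of the node, was at 7.32, 7.13 and 7.24 in wildtype and 7.17, 7.13 and 7.25 in *Zic2* iso/iso pools. All pools were below the background level, in the middle of the dim probes (61.1% of them were dimmer), so its level in the node could not be read from whole embryos on this array. The co-receptor gene *Cfc1* was at 7.31, 7.37 and 7.46 in wildtype and 7.34, 7.46 and 7.30 in mutant pools. *Tdgf1* was at 7.31, 7.21 and 7.23 in wildtype and 7.18, 7.26 and 7.10 in mutant pools. Neither co-receptor reached the background level in any pool, and both genotypes overlapped. The log2 fold changes of these 3 genes and *Gdf3* were −0.07 to −0.01, with adjusted p of 0.96 to 0.99 from limma, and say nothing about transcripts that the array did not detect.

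**Figure D2:**
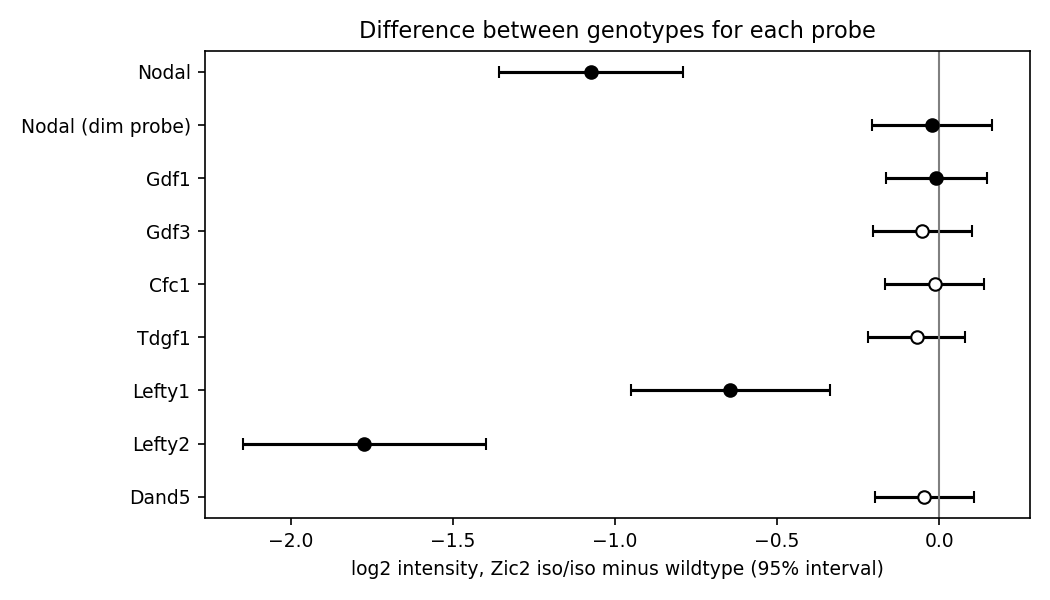
Difference in log2 intensity between Zic2 iso/iso and wildtype pools (horizontal axis, with its 95% interval from limma) for each of the 9 probes (vertical axis). Open circles are probes below background in all 6 pools; the intervals of Lefty2, the brighter Nodal probe and Lefty1 lie below 0, and those of Gdf1, the dim Nodal probe and the 4 undetected genes include it.

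Whether one member changed more than another was asked of 6 pairs of genes, from the difference of their log2 values within each pool. The difference of *Nodal* and *Gdf1* was −2.95, −2.41 and −2.56 in wildtype and −3.82, −3.81 and −3.48 in mutant pools. It was lower in every mutant pool, by 1.07 on average (exact permutation test, two-sided p = 0.1, adjusted over the 6 pairs 0.15). The difference of *Lefty2* and *Lefty1* was 1.36, 0.24 and 0.84 in wildtype and −0.40, −0.09 and −0.46 in mutant pools. It was also lower in every mutant pool, a measured change of −1.13 (exact permutation p = 0.1, adjusted 0.15). *Lefty2* was below background in all mutant pools and *Lefty1* in 1, so the size of this change, and of that against *Nodal*, is not known. The difference of *Lefty2* and *Nodal* was 0.51, −0.79 and 0.51 in wildtype and −0.46, −0.47 and −0.95 in mutant pools, which overlap (change −0.70, exact p = 0.3, adjusted 0.30). That of *Nodal* and *Lefty1* also overlapped (change −0.43, exact p = 0.3, adjusted 0.30), so the data do not order the falls of *Nodal* and *Lefty1*. The remaining pairs set *Nodal* against *Gdf3* and *Tdgf1*, which were not detected, and give no comparison, although the adjustment counts them.

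Over all 6 pools, which take in the difference between genotypes, Pearson's r was 0.84 between *Nodal* and *Lefty1*, 0.81 between *Nodal* and *Lefty2* and 0.80 between the *Lefty* genes, given as a description only. Within a genotype the order of the pools differed between the 3 genes. *Nodal* deviated from the wildtype mean by −0.27, 0.32 and −0.05 in wildtype pools 1 to 3, and *Lefty2* by 0.17, −0.55 and 0.38. The wildtype pool with the highest *Nodal* thus had the lowest *Lefty2*. *Lefty1* deviated by −0.38, 0.03 and 0.35, in another order again. Among the mutant pools *Nodal* deviated by −0.14, −0.08 and 0.22 and *Lefty1* by 0.11, −0.15 and 0.05. *Lefty2*, below background there, deviated by 0.03, 0.07 and −0.10. *Gdf1* deviated by −0.13 to 0.09 over all 6 pools. The spread of *Lefty2* over wildtype pools (SD 0.49, n = 3) and of *Lefty1* (SD 0.37, n = 3) was larger than that of *Gdf1* (SD 0.12, n = 3), values given with no test.

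**Figure D3:**
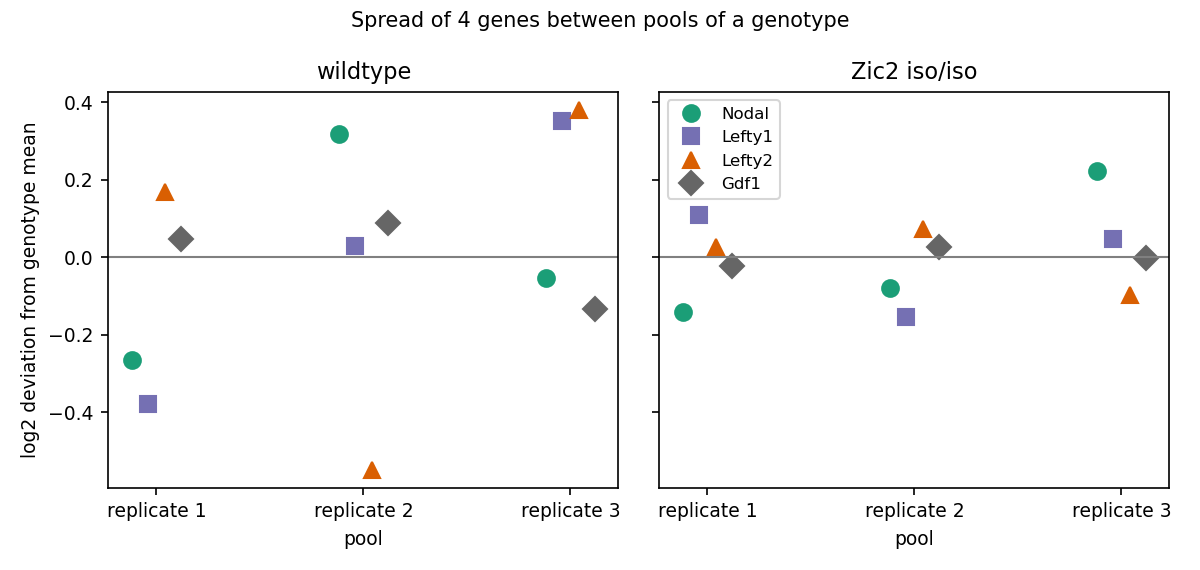
Deviation of each pool from the mean of its genotype (vertical axis, log2) for Nodal, Lefty1, Lefty2 and Gdf1 in the 3 wildtype pools (left) and the 3 Zic2 iso/iso pools (right). In wildtype replicate 2 Nodal is highest (0.32) and Lefty2 lowest (−0.55), and Gdf1 stays within −0.13 to 0.09.

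Among 10434 other genes above background, those with a pattern over the 6 pools most like that of *Nodal* were *Ska3* (Pearson's r 0.99), which encodes a protein of the spindle and kinetochore, *Ramp3* (0.98), which encodes a partner of calcitonin-type receptors, and *Nudt19* (0.98). None passed the test, with log2 fold changes of −0.16, −0.27 and −0.16. Most like *Lefty2* were *Ciart* (0.99), a gene of the circadian clock, *Gdf10* (0.99), which encodes a TGFβ family ligand, and *Foxb1* (0.98), a forkhead gene. Of these *Gdf10* fell, by 0.85 on the log2 scale (adjusted p = 0.0069 from limma), while *Ciart* and *Foxb1* were at −0.34 and −0.12 and did not pass. These r over 6 pools are the highest of many, take in the difference between genotypes and are a description only.

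The rest of the pathway was taken as 31 genes in 6 roles, of which 24 had a probe under their name in the files used here and 19 were above the background level. Of the 24, 3 fell (*Chrd*, *Gsc* and *Shh*), 0 rose and 21 missed the threshold, which 0.0442% of all probes passed. The list was written with earlier results of these arrays known and is not independent evidence of a direction. The median log2 fold change of the 19 was −0.11, where that of the 18449 probes above background was 0.000415, and pools of the genotypes did not overlap in 7 of the 19 (11.8% of all probes above background).

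*Chrd* encodes Chordin, a secreted antagonist of BMP, and fell by 0.52 on the log2 scale (adjusted p = 0.011 from limma). The other secreted antagonist genes *Cer1*, which blocks Nodal and BMP in the anterior endoderm, and *Nog*, which blocks BMP, were at −0.31 and −0.14. Neither passed, although the mutant pools of both lay under all wildtype pools. Both were above the background level in all 3 wildtype pools, but *Cer1* in 2 and *Nog* in 1 of 3 mutant pools. The size of these differences is thus not known. *Fst*, which encodes an inhibitor of activin, was at −0.02. *Gsc*, which responds to Nodal and encodes a homeobox factor of the organizer, fell by 0.78 (adjusted p = 0.0019) and *Shh*, the Hedgehog ligand gene of the node and notochord, by 0.86 (0.0075). *Mixl1*, which also responds to Nodal, was at 0.06 and *Foxa2* at −0.11, neither past the test, while *Eomes* was below background.

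Of the receptor genes *Acvr2b*, at 0.10, and *Acvr1b*, at −0.07, did not pass, and *Acvr1c* and *Acvr2a* were below background. *Smad2*, a transducer of the Nodal signal, had the largest difference in its role, at −0.28, and was lower in every mutant pool without passing the test (limma, standard error 0.08, adjusted p = 0.56). *Smad3* was at −0.11 and *Foxh1*, the DNA-binding partner of the SMADs, at 0.09. *Furin*, a convertase that cleaves the Nodal precursor, was at 0.15, higher in every mutant pool, and *Pcsk6*, which also does, at −0.15, and neither passed. *Notch1* and *Dll1*, which act upstream of *Nodal* at the node, were at 0.02 and −0.13.

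**Figure D4:**
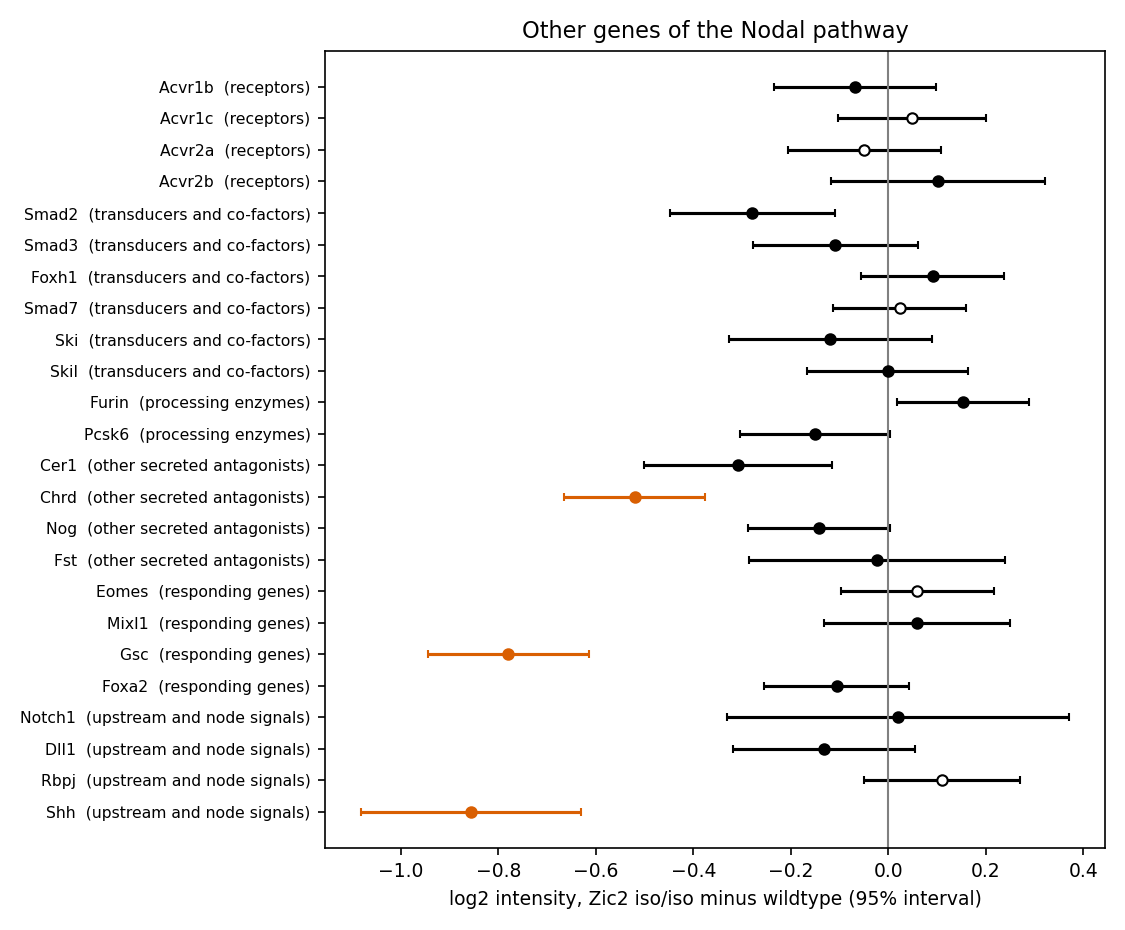
Difference in log2 intensity between Zic2 iso/iso and wildtype pools (horizontal axis, with its 95% interval from limma) for 24 other genes of the pathway, grouped by role (vertical axis). Orange marks the genes that passed the test, Chrd, Gsc and Shh, and open circles the genes whose mean over 6 pools is at or below 7.47.

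Since *Nodal*, *Lefty1* and *Lefty2* are used in the node, the midline and the lateral plate, and their use changes within hours, markers of tissues and stages were set beside them. Of 8 lateral plate markers 6 were above background and none passed the test, with log2 fold changes of −0.04 to 0.25 among the 6 and a summed intensity of 3315 to 3559 in wildtype and 3527 to 4062 in mutant pools. Of 7 measured node and notochord markers *Shh* and *Chrd* fell and 5 did not pass. Of these 5, *Nog* was lower in every mutant pool, at −0.14, but above background in only 1 of 3 mutant pools. *Foxa2* was at −0.11 and *Foxj1*, the factor of motile cilia, at −0.02, both with pools that overlapped. The other genes were *Rfx3*, at 0.03, and the node homeobox gene *Noto*, at 0.0018. Both lay near the background level, each above it in 1 of 3 wildtype and 2 of 3 mutant pools. No change could thus be read for *Rfx3* or *Noto*. The sum of the normalised intensities of the 7 was lower in every mutant pool (1629 to 1752) than in every wildtype pool (2083 to 2255). Without *Shh* and *Chrd* the sums of the other 5 overlapped (947 to 1018 against 986 to 1087). *Shh* and *Chrd* were left out because they fell, so this overlap does not test the list. Of 7 somite and presomitic markers none passed, and their sum was also lower in every mutant pool (3067 to 3483 against 3521 to 4273). Their mean log2 value overlapped, at 8.44 to 8.64 in wildtype and 8.36 to 8.49 in mutant pools. The sum was carried by the bright *Meox1*, *Tcf15* and *Tbx6*, at −0.28, −0.52 and −0.13. *Tcf15*, a gene of the somites, had an adjusted p of 0.27 from limma. Without these genes the sums overlapped (680 to 716 against 661 to 731). The genes left lie near or below background, so that overlap cannot tell whether somite markers changed.

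Heart markers had sums that overlapped, 7957 to 9802 in wildtype and 4123 to 8026 in mutant pools, of which mutant pool 3 was lowest, with log2 fold changes of −0.66 to −0.03 and no call among 7. The sums of 8 primitive streak markers (12765 to 15131 against 11195 to 12202) and of 10 markers of pluripotent and germ cells (3787 to 4040 against 3260 to 3649) were higher in every mutant pool. The mean log2 value of the streak markers overlapped (9.35 to 9.54 in mutant, 9.34 to 9.37 in wildtype pools). That of the pluripotent and germ cell markers did not (8.01 to 8.06 against 7.87 to 7.97). Without *Cdx2* the streak sums overlapped (6982 to 8674 against 6881 to 7342), as did the pluripotent sums without *Pou5f1* and *Nanog* (2259 to 2465 against 2227 to 2457). The genes left out were those above background with every mutant pool higher, so the overlap of the rest does not test these lists. Of the pluripotent genes left, all but *Tfap2c* were below background on average. No gene of these lists passed the test, and 3 of the 8 and 7 of the 10 were below background on average. *Cdx2*, a gene of the streak and tail bud, was at 0.32, *Pou5f1*, a pluripotency factor gene, at 0.37 and *Nanog*, another, at 0.56 (adjusted p = 0.50, 0.28 and 0.084). Sums of markers of the yolk sac, of trophoblast and decidua and of the neural plate overlapped between genotypes, with no call among 8, 6 and 8 genes. The yolk sac genes were at −0.10 to 0.50, with 1 of the 8 below 0. Highest was *Apob*, higher in every mutant pool (adjusted p = 0.15 from limma). The part of stage or tissue makeup in the falls of *Nodal* and *Lefty2* was not tested.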

How the data were processed

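RNA from 6 pools of 8 embryos (3 *Zic2* iso/iso, 3 wildtype) was hybridised to Illumina arrays, and genotypes came from the titles. The authors deposited linear intensity values for 45281 probes. The methods name a variance stabilising normalisation, which these deposited values do not carry, so the steps planned for linear values were used. Intensities under 1 were set to 1, converted to log2 and quantile normalised, and fitted with limma 3.58.1 (lmFit, eBayes) in R 4.3.3 without covariates, which was tested on simulated data. Symbols came from the array's annotation: 34885 probes have 1, 18 several and 10378 none. The brightest probe stood for a gene. For lists, a gene was above background if its mean over pools exceeded 7.47. Named genes were all members, list genes past the threshold, the largest change in each role and the 3 genes most like each called member, and other genes named were chosen after their values were seen. Members and lists were chosen with earlier results of these data known. Alternatives were other scalings, background corrections and variance priors, a filter, array weights, a replicate block, averaged probes and leaving out each pool. The variance stabilising normalisation among them was rewritten and is not the package that the study used, so its values can differ from those of the study. Marker sums without the genes that carry them were added after seeing the data. Nothing in the files says that pools came from separate litters, so p-values measure the spread between pools, and the number of arrays limits precision.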

Additional observations from a re-analysis of the deposited data

How the results depend on the processing

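Of the members, 2 were called, and 1 without normalization between arrays (*Lefty2*), with median centring (*Lefty2*), with a robust prior (*Nodal*) and with probes averaged by gene (*Lefty2*), and 1 to 3 when each pool was left out in turn. The call for *Nodal* was lost with median centring (adjusted p = 0.11). Of all probes 4 passed without normalization (3 lower), 11 with median centring (10 lower), 31 with an intensity trend and 13 with averaged probes, and 14 to 29 (13 to 23 lower) without 1 pool. Of the 20 calls 18 were lower, and the share of lower calls became 75.0% without normalization, 79.2% with normexp or the variance stabilising normalisation, and 77.8% with normexp and median centring, which was chosen after seeing the data. Of the other pathway genes 3 were called, none without normalization and 2 to 3 without 1 pool. The log2 fold change was −1.22 to −0.91 for *Nodal* and −2.04 to −1.59 for *Lefty2* without 1 pool, and both kept their sign in all 17 settings, as did *Lefty1*. Signs turned for differences near 0: *Gdf1* to 0.068 without normalization, 0.019 with median centring, 0.0079 with normexp and median centring and up to 0.035 without 1 pool (−0.075 to 0.035), *Cfc1* to 0.038 without normalization (−0.061 to 0.027 without 1 pool) and *Gdf3* to 0.0050 without normalization. With the replicate block 2 members, 2 other pathway genes and 17 probes passed. Deviations of pools with the same number correlated at −0.13, −0.02 and −0.12. Pools of unlike number were not compared, so whether the numbers pair samples is not known. The dim probes, with 4 of 8 members below background, limit what can be read.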
